A study of Mus musculus with 8 samples.

Results

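Replication-dependent histone genes encode the core histones H2A, H2B, H3 and H4, around which DNA is wound, and the linker histone H1, which binds between nucleosomes. They were taken as every gene of the deposited count table whose symbol carries the cluster nomenclature of this family (Hist1h to Hist4h, or the newer H1c, H2ac, H2bc, H3c and H4c forms), and 70 of 56077 genes and loci met that rule. The 70 comprise 6 H1, 20 H2A, 19 H2B, 12 H3 and 13 H4 genes. By symbol, 56 belong to the Hist1 cluster, 10 to Hist2, 3 to Hist3 and 1, Hist4h4, to Hist4. GENCODE release 21 on GRCm38 (mm10) places these on chromosomes 13, 3, 11 and 6 in that order. The pseudogene Hist1h2al (chr13:51202727-51203065) lies far from the other Hist1 genes. The annotation calls 67 of the 70 protein-coding and 3 pseudogenes.

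The RNA came from livers of 6-month-old C57BL/6 mice, 4 heterozygous (Het) and 4 wild type (WT). Het animals are labelled as carrying the eIF2α flox/+ genotype, in which a single allele of the translation initiation factor subunit eIF2α is floxed, and no recombinase is named in the labels, whose growth protocol calls all the mice wild type. All mice were lean, had free access to food under a cycle of 12 h light and 12 h dark, and were killed at 6:30 am in the fed state. RNA was depleted of ribosomal RNA and the labels name no selection for poly(A) tails, so transcripts with and without a tail could enter the libraries. The labels do not state whether litters were shared, so p-values measure only the spread between these 8 samples.

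Genes of this family are switched on when a cell copies its DNA, and their mRNA is broken down when copying ends. Their transcripts normally end just after a short 3′ stem-loop in place of a poly(A) tail, a structure bound by the stem-loop binding protein Slbp. In differentiated cells some of these genes are also known to give longer, polyadenylated transcripts. The adult liver holds few dividing cells.

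Library totals lay between 22178028 and 28564400 rounded estimated counts in Het livers and between 25626387 and 27799116 in WT livers. Summed over 6 hepatocyte markers, CPM (counts per 1000000 of the TMM-scaled library size) lay between 86790 and 96079 in Het livers and between 74269 and 101333 in WT livers. Eif2s1, the gene for eIF2α, averaged 22.2 ± 2.12 CPM in Het livers and 30.0 ± 2.0 CPM in WT livers (SD, n = 4 each), and the groups did not overlap. An exact two-sided permutation test gave p = 0.0286 for it, the smallest value that 4 against 4 samples allow. Its log2 fold change of Het over WT was -0.44 (SE 0.095), with an edgeR Benjamini-Hochberg adjusted p of 0.315 over all genes.

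The 3′ stem-loop was searched for in the annotated transcripts, as a perfect 6-base stem and a 4-base loop without G. The first strand of the stem had to open with GG, go on with C or T only and end in T. In members the match had to lie past the stop codon, while other genes were searched over the whole transcript. The stem-loop was found in 46 of the 70 members, which is 68.7% of the 67 protein-coding ones, against 0.156% of 21834 other protein-coding genes (34 genes). The match began 25 to 62 bases after the last coding base (median 35). The form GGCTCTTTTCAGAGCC stood in 26 members, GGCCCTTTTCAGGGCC in 7 and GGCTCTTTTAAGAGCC in 6, and the other 5 forms in 1 or 2 members each. The sites of the members on which the values below turn are printed 5′ to 3′ on the transcript strand, with the stem and loop in capitals, because this element is what defines the family's RNA, from GENCODE release 21 transcripts on GRCm38.
Hist1h1c (H1, chr13:23739512-23739527, plus strand): aaaaGGCTCTTTTCAGAGCCacca
Hist2h2aa1 (H2A, chr3:96246032-96246047, plus strand): aaaaGGCTCTTTTCAGAGCCaccc
Hist2h2aa2 (H2A, chr3:96239784-96239799, minus strand): aaaaGGCTCTTTTCAGAGCCaccc
Hist3h2a (H2A, chr11:58955172-58955187, plus strand): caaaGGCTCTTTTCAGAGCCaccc
Hist1h4h (H4, chr13:23531458-23531473, plus strand): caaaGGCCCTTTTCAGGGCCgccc
Hist1h4i (H4, chr13:22040966-22040981, minus strand): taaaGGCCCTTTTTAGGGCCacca

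The H1 and H2A sites listed share 1 stem and loop and differ only in the flanking bases, and the H4 sites have another stem. Hist1h2bc, the most abundant member, and Hist2h2be gave no match in their annotated transcripts, which says only that this pattern is not in them. The tested members had longer annotated transcripts than the others. The low-count filter uses counts not divided by length, so longer members pass it more easily, and length and level were not separated. The annotated length had a median of 1595 bases in the 16 tested members and 483.5 bases in the 54 others. The annotated transcript ran more than 100 bases past the stem-loop in 11 of the 16 tested members, up to 100 bases past it in 3, and had no match in 2. Among the 54 others these numbers were 12, 20 and 22. Hist1h1c is annotated 840 bases beyond its stem-loop, Hist1h4i 330 bases, Hist3h2a 1643 bases, and Hist2h2aa1 and Hist2h2aa2 35 bases each. Where in a transcript the reads fell is not recorded in gene counts, so the share from short stem-loop ended RNA and from longer RNA was not measured.

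The whole family took 0.0204 to 0.0282% of the counts of a library. The summed level of the 70 members was 239, 266, 242 and 313 CPM in Het livers (libraries H11, H12, H15 and H75, an order kept throughout) and 193, 216, 265 and 237 CPM in WT livers (W32, W33, W76 and W90). The highest library was Het and the lowest WT, but the groups overlapped. The means were 265 ± 34.4 CPM in Het livers and 228 ± 30.7 CPM in WT livers (SD, n = 4 each), a ratio of 1.16 or 0.22 on the log2 scale. This ratio depends on the scaling, since H12 and H75 had the lowest TMM factors (0.909 and 0.900), which raise their CPM. In bulk liver, fewer cells of a type and less RNA per cell cannot be told apart.

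Nearly all of that total came from 4 genes. Hist1h2bc held 59.4% of the family's counts over the 8 libraries, Hist1h1c 15%, Hist2h2aa2 9.40% and Hist2h2aa1 8.64%, and together they held 92.4%. The other 66 members summed to 19.7, 16.7, 18.3 and 19.3 CPM in Het livers H11, H12, H15 and H75, and to 14.7, 16.6, 29.3 and 14.3 CPM in WT livers W32, W33, W76 and W90. The Het values lay inside the range of the WT values, whose highest, W76, stood well above the others. The means were 18.5 ± 1.35 CPM in Het livers and 18.7 ± 7.13 CPM in WT livers (SD, n = 4 each).

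Per kilobase of deposited gene length, Hist1h2bc had the highest level over the 8 libraries, at 126 CPM per kb. Hist2h2aa2 at 44.4 and Hist2h2aa1 at 36.8 CPM per kb followed, and Hist1h1c stood at 23.4 CPM per kb. The next members were Hist1h4h at 3.31 and Hist1h4i at 3.11 CPM per kb, whose values overlap between libraries. The other 10 tested members had 1.63 CPM per kb or less, and Hist1h1d was the lowest at 0.0695 CPM per kb.

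**Figure D1:**
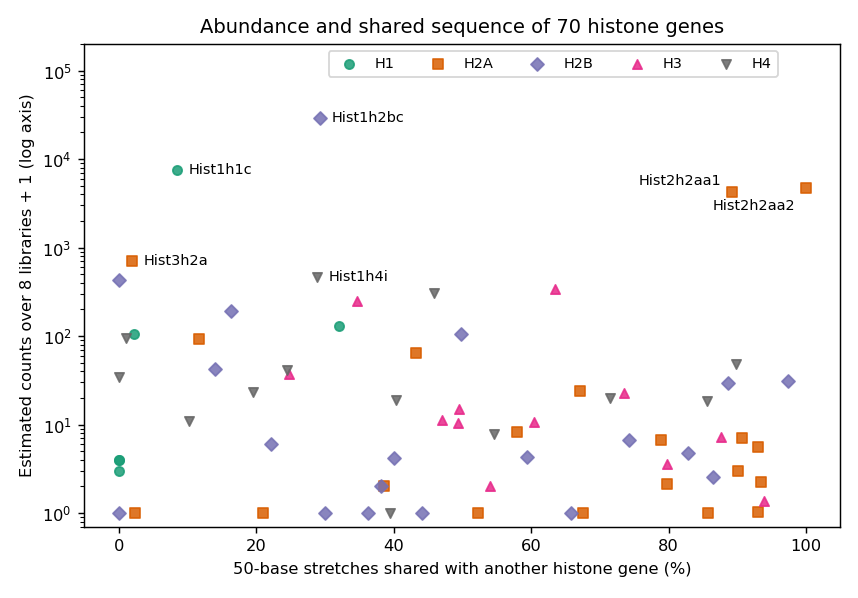
Summed estimated counts over the 8 libraries plus 1 (log axis) of the 70 histone genes against the share of their 50-base stretches that occur in another histone gene (percent), with marker shape giving the class. Hist1h1c stands high at 8.54% shared and Hist1h2bc at 29.4%, while Hist2h2aa1 and Hist2h2aa2 stand high at 89.2 and 100% shared.

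Histone genes are near copies of each other, and 32 of the 70 members share more than 50% of their 50-base stretches with another member, while 6 share none. The median share was 29.1% in the tested members and 54.3% in the others. The tested members were also longer, and length and sharing were not separated. Counts were whole numbers in all libraries for 25 members and carried fractions for 45, so for the 45 the value depends on how reads were divided between genes. Of the 16 tested members, 4 had whole counts throughout: Hist1h1c, Hist1h1d, Hist2h4 and Hist2h2be. Summed over the 25 members with whole counts, the means were 38.8 ± 7.17 CPM in Het livers and 40.8 ± 7.17 CPM in WT livers (SD, n = 4 each), a log2 ratio of -0.07. Of the 8118 counts of these 25 members, Hist1h1c held 7445, and 11 of the 25 had no count in any library. Their log2 ratio thus describes Hist1h1c almost alone and does not compare members with and without fractions as sets. The ratio above 1 of the whole family came from members whose counts carry fractions, Hist1h2bc and the Hist2h2aa copies above all.

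The low members were barely detected. The 54 members below the filter summed to 44.2 to 101 counts per library in Het livers and 47.5 to 114 in WT livers, or 2.85 ± 1.03 CPM in Het and 2.79 ± 1.21 CPM in WT (SD, n = 4 each). In 11 of them no count was found in any library, and 34 of the 70 members had at most 3 counts in every library. A count of 0 allows up to 3 counts, which is 0.102 to 0.150 CPM depending on the library, for counting error alone. The highest value among the untested members was 21.03 counts, for Hist1h2br in W76, and the tested and untested members were separated by mean levels of 0.451 CPM for the lowest tested and 0.315 CPM for the highest untested member. Between 31 and 42 members had any count in a library.

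Of the linker histones, which compact chromatin between nucleosomes, Hist1h1c made up 96.8% of H1 counts. It had 32, 34.1, 45.9 and 30.5 CPM in Het livers and 31.2, 31.9, 40.7 and 45.8 CPM in WT livers, and the ranges overlap almost throughout. Its means were 35.6 ± 7.03 CPM in Het and 37.4 ± 7.07 CPM in WT livers (SD, n = 4 each), with a log2 fold change of -0.07 (SE 0.16). Hist1h1d had 0.763, 0.501, 0.340 and 0.50 CPM in Het livers and 0.409, 0.429, 0.732 and 0.454 CPM in WT livers. Hist1h1e had 0.741, 0.735, 0.857 and 0.250 CPM in Het livers and 0.383, 0.286, 1.70 and 0.151 CPM in WT livers. For these 2 genes the WT liver W76 was the highest WT library. For Hist1h1d that rests on 19 counts in W76, against 12 in each other WT library. The log2 fold changes were 0.06 (SE 0.36) for Hist1h1d and 0.05 (SE 0.69) for Hist1h1e. Hist1h1e overlaps Hist1h2be on the same strand, and 23.8% of its 50-base stretches occur there, so their reads cannot be told apart in that stretch. Hist1h1a and Hist1h1b, named after their values were seen, are replication-dependent linker genes and had 3 counts each over all 8 libraries.

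The H2A class was led by Hist2h2aa1 and Hist2h2aa2, copies in the Hist2 cluster that lie 5220 bases apart on opposite strands of chromosome 3. By GENCODE, the 528-base transcript of Hist2h2aa2 (chr3:96239749-96240276, minus strand) is contained without a mismatch in the 586-base transcript of Hist2h2aa1 (chr3:96245497-96246082, plus strand). In that annotation the Hist2h2aa1 transcript starts 58 bases earlier. No read within Hist2h2aa2 can therefore be assigned to it alone by sequence, and the deposited counts of both carry fractions. Hist2h2aa2 also lies opposite Gm20632 and Gm47311, and Hist2h2aa1 opposite Gm20633 and Gm47313, and without a stated strand setting their reads cannot be told apart.

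Hist2h2aa2 had 25.6, 32.9, 20.9 and 38.1 CPM in the Het livers H11, H12, H15 and H75 in that order, and 15.6, 18.6, 18.1 and 18.0 CPM in WT livers W32, W33, W76 and W90. All 4 Het values were above all 4 WT values. It was the only tested member whose groups did not overlap with Het higher, which 2.05% of all genes tested also showed, and 0 of the 16 tested members were separated with Het lower, against 2.33% of all genes. The means were 29.4 ± 7.61 CPM in Het livers and 17.6 ± 1.32 CPM in WT livers (SD, n = 4 each). Its log2 fold change was 0.74 (SE 0.17), with an unadjusted p of 0.00155 and an adjusted p of 0.351 by edgeR, so it did not pass over all genes. DESeq2 gave it an adjusted p of 0.0157, limma-voom 0.418, and edgeR without the Het library H15 a log2 fold change of 0.87 with an adjusted p of 0.0211, and over all settings tried the adjusted p lay between 0.0157 and 0.678. In the authors' deposited table it has a log2 fold change of 0.74, an adjusted p of 0.0169 and is not marked as significant.

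Its near copy Hist2h2aa1 had 16.7, 25.2, 17.4 and 36.8 CPM in Het livers and 15.3, 17.4, 28.4 and 15.2 CPM in WT livers. These groups overlapped, with W76 above all other WT libraries and H75 highest of all. The log2 fold change was 0.33 (SE 0.28), with an adjusted p of 0.744 by edgeR. Hist2h2aa2 held 60.4, 56.6, 54.6 and 50.8% of the counts of the pair in Het livers and 50.5, 51.7, 38.9 and 54.2% in WT livers, so the division between the copies differed among libraries. It was lowest in W76, the WT library in which Hist2h2aa1 was highest.

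Because the copies cannot be separated by sequence, their counts were also summed and tested as 1 gene, an alternative chosen after the values were seen. The pair had 42.3, 58.1, 38.3 and 74.9 CPM in Het livers and 31.0, 35.9, 46.5 and 33.1 CPM in WT livers. The groups now overlapped, since W76 was above H11 and H15. The means were 53.4 ± 16.7 CPM in Het livers and 36.6 ± 6.88 CPM in WT livers (SD, n = 4 each), with a log2 fold change of 0.54 (SE 0.21), an unadjusted p of 0.0289 and an adjusted p of 0.483 by edgeR. The DESeq2 adjusted p of the pair was 0.290, and over all settings tried its adjusted p lay between 0.135 and 0.862. The call that DESeq2 and the fit without H15 made for Hist2h2aa2 was thus not made for the pair under any setting tried.

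Gm20634, a transcript annotated over Hist2h2aa1 and Hist2h3c1 on the same strand, can take reads of this locus too. It had 9.21, 7.46, 13.8 and 9.60 CPM in Het livers and 12.3, 8.55, 21 and 6.55 CPM in WT livers, with a log2 fold change of -0.27 (SE 0.34). Added to the pair, it brought the sum to 63.4 ± 15.5 CPM in Het livers and 48.7 ± 12.6 CPM in WT livers (SD, n = 4 each). That sum had a log2 fold change of 0.38 (SE 0.20), with an adjusted p of 0.600 by edgeR and of 0.565 by DESeq2.

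**Figure D2:**
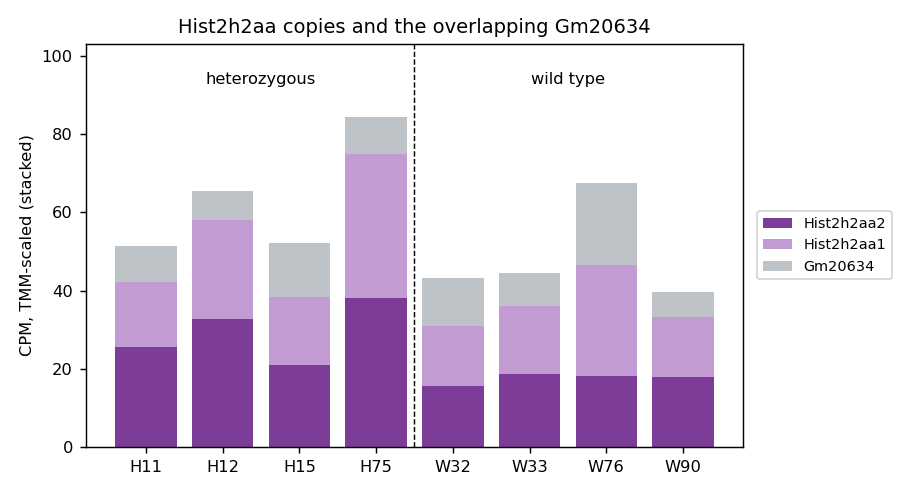
CPM of Hist2h2aa2, Hist2h2aa1 and Gm20634, Het livers left of WT livers, as stacked bars with 1 bar per library. The Hist2h2aa2 segments of Het livers (20.9 to 38.1 CPM) are all taller than those of WT livers (15.6 to 18.6 CPM), while the stacked totals overlap between groups.

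The sequence before the copies is also duplicated. RefSeq promoter windows of 300 bases on GRCm38.p6 (250 before to 50 after the annotated start) were found for 62 of the 70 members, as 63 windows. The windows of Hist2h2aa1 (chr3:96245247-96245546, plus strand) and Hist2h2aa2 (chr3:96240325-96240624, minus strand) share an unbroken identical run of 219 bases, from base 42 in the first and from base 82 in the second. They are printed 5′ to 3′ on the strand of the gene to show the copied stretch that sets the limit on telling the genes apart, with TATAAA and CCAAT (or its reverse complement ATTGG) in capitals.
Hist2h2aa1: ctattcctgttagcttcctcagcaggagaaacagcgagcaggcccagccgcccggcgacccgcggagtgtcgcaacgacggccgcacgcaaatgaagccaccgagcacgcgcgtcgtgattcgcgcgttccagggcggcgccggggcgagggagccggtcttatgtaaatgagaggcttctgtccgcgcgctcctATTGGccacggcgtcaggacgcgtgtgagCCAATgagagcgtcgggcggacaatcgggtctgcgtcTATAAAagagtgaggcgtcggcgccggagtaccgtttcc
Hist2h2aa2: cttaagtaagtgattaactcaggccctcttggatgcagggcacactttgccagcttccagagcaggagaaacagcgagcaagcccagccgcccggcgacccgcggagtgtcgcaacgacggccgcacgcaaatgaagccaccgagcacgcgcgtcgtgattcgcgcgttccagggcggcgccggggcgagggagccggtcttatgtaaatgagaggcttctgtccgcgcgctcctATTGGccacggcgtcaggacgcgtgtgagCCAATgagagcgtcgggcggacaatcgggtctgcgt

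Each window holds CCAAT 2 times within the copied run. TATAAA is present 1 time in the Hist2h2aa1 window, just past the copied run, and 0 times in the Hist2h2aa2 window, which ends with that run. The RefSeq start used for Hist2h2aa2 lies upstream of its GENCODE transcript, so its window stops before that transcript begins. Bases past the window were not searched, so the 0 does not show that Hist2h2aa2 lacks TATAAA. Over the family, counting both strands, TATAAA was present in 35 of 63 windows (55.6%), against 13.6% of all 32851 promoter windows. CCAAT was present in 54 of 63 (85.7%), against 37.4% of all windows. Both motifs are letters found in these windows and were not tested for binding.

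The remaining tested H2A genes were much lower. Hist3h2a, the only tested gene of the Hist3 cluster, had 3.55, 2.62, 3.06 and 3.95 CPM in Het livers and 2.76, 4.11, 4.39 and 3.11 CPM in WT livers. Hist1h2ac had 0.623, 0.667, 0.212 and 0.50 CPM in Het livers and 0.389, 0.179, 0.510 and 0.530 CPM in WT livers. Both overlapped between groups, with log2 fold changes of -0.13 (SE 0.21) and 0.35 (SE 0.45). Hist3h2a also overlaps Trim17 on the same strand. The whole H2A class had 57.9 ± 16.9 CPM in Het livers and 41.1 ± 7.81 CPM in WT livers (SD, n = 4 each), most of it from the Hist2h2aa pair.

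The H2B class, the partner of H2A in the nucleosome, was almost entirely Hist1h2bc, with 97.2% of H2B counts. This gene has 2 exons over chr13:23684199-23692908 on the plus strand. It had 145, 157, 139 and 189 CPM in Het livers H11, H12, H15 and H75, and 116, 131, 149 and 144 CPM in WT livers W32, W33, W76 and W90. H75 was the highest of all and W32 the lowest, but H15 lay below W76 and W90. The means were 157 ± 22 CPM in Het livers and 135 ± 14.5 CPM in WT livers (SD, n = 4 each). The log2 fold change was 0.22 (SE 0.12), with an unadjusted p of 0.0957 and an adjusted p of 0.606 by edgeR. With library totals alone as scaling, the log2 fold change of Hist1h2bc was 0.13 (SE 0.095).

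The other tested H2B genes were low. Hist2h2be, which shares no 50-base stretch with another member, had 2.29, 1.31, 2.68 and 1.80 CPM in Het livers and 2.01, 2.11, 2.85 and 1.89 CPM in WT livers. Hist1h2be had 0.981, 0.554, 1.07 and 0.650 CPM in Het livers and 0.477, 0.848, 2.39 and 0.608 CPM in WT livers. Hist1h2bg had 0.233, 0.676, 0.456 and 0.635 CPM in Het livers and 0.531, 0.204, 0.728 and 0.617 CPM in WT livers. In all of them the groups overlapped and W76 was the highest WT library. Their log2 fold changes were -0.13 (SE 0.26), -0.42 (SE 0.51) and -0.03 (SE 0.45).

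H3 genes, whose protein tails carry many of the known chromatin marks, summed to 3.43 ± 0.497 CPM in Het livers and 3.45 ± 2.31 CPM in WT livers (SD, n = 4 each). Most of that came from Hist2h3c2 and Hist2h3c1, a further duplicated pair in the Hist2 cluster. Hist2h3c2 had 1.64, 1.35, 2.08 and 1.63 CPM in Het livers and 0.980, 1.44, 3.36 and 0.868 CPM in WT livers. Hist2h3c1 had 0.315, 1.69, 1.53 and 1.36 CPM in Het livers and 0.906, 0.950, 2.71 and 0.366 CPM in WT livers. W76 was the highest of all 8 libraries for both, and the groups overlapped. The log2 fold changes were 0.02 (SE 0.42) and -0.02 (SE 0.60).

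H4 genes summed to 5.52 ± 0.617 CPM in Het livers and 5.14 ± 1.46 CPM in WT livers (SD, n = 4 each), and the 2 leading ones differed in direction. Hist1h4h (chr13:23531050-23531519, plus strand) had 2.09, 2.55, 1.36 and 2.78 CPM in Het livers H11, H12, H15 and H75, and 0.307, 1.19, 1.47 and 0.681 CPM in WT livers W32, W33, W76 and W90. The only overlap was H15, which lay below W76. These rest on 52.0, 66.2, 31.9 and 55.6 estimated counts in Het livers and on 9, 33.4, 38.2 and 18.0 in WT livers. The means were 2.19 ± 0.629 CPM in Het livers and 0.914 ± 0.521 CPM in WT livers (SD, n = 4 each), with a log2 fold change of 1.28 (SE 0.43). This was the largest positive value among the tested members, at an unadjusted p of 0.0147 and an adjusted p of 0.442 by edgeR. It shares 45.8% of its 50-base stretches with other members, and its counts carry fractions.

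Hist1h4i (chr13:22040636-22041362, minus strand) had 1.96, 1.60, 2.51 and 1.45 CPM in Het livers and 1.94, 2.52, 3.18 and 2.91 CPM in WT livers. Every Het value lay below W33, W76 and W90, while W32 lay among the Het values. The means were 1.88 ± 0.470 CPM in Het livers and 2.64 ± 0.537 CPM in WT livers (SD, n = 4 each), with a log2 fold change of -0.48 (SE 0.24) and an adjusted p of 0.579 by edgeR. Hist2h4 had 0.442, 0.308, 0.297 and 0.450 CPM in Het livers and 0.579, 0.643, 0.886 and 0.0378 CPM in WT livers. Of its WT values, 3 lay above every Het value and 1, in W90, below all of them, and the log2 fold change was -0.52 (SE 0.61).

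**Figure D3:**
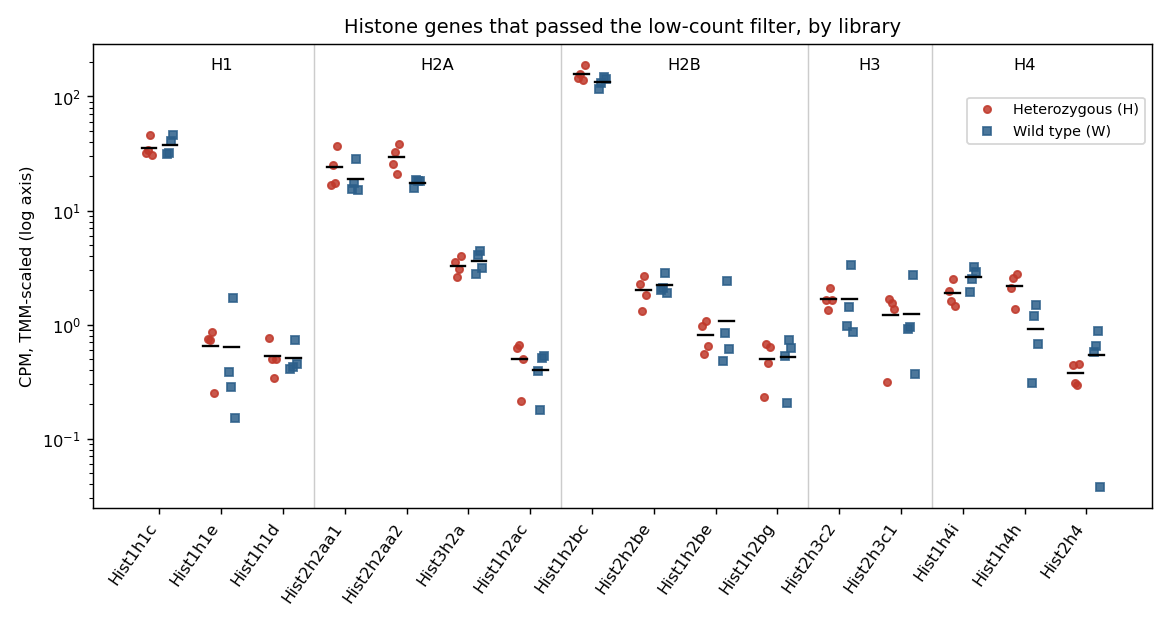
CPM (log axis) of the 16 tested histone genes in each library, Het livers left of WT livers within a gene, with bars at the group means. Hist2h2aa2 is the only gene whose Het and WT points do not overlap, and W76 is the highest of the 8 libraries in 9 of the 16 genes.

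No tested histone gene differed between genotypes past the threshold over all genes. By edgeR, 0 of the 16 tested members passed an adjusted p of 0.05, 0% of the 14261 genes tested did, and limma-voom called 0 members as well. DESeq2 called 1 member, Hist2h2aa2, where it called 1.07% of genes, and edgeR without H15 called the same member and 1.74% of genes. At an unadjusted p under 0.05 by edgeR, 2 members were higher in Het livers, Hist2h2aa2 and Hist1h4h, where 4.90% of all genes were, and 0 were lower, where 4.44% of all genes were. Of the 16, 8 had a log2 fold change above 0 and 8 below 0, and 51.1% of all genes were above 0. The median log2 fold change was 0.0030 over the tested members and 0.0051 over all genes. Standard errors ran from 0.12 for Hist1h2bc to 0.69 for Hist1h1e, so for the low members only large differences could have been detected at this depth.

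**Figure D4:**
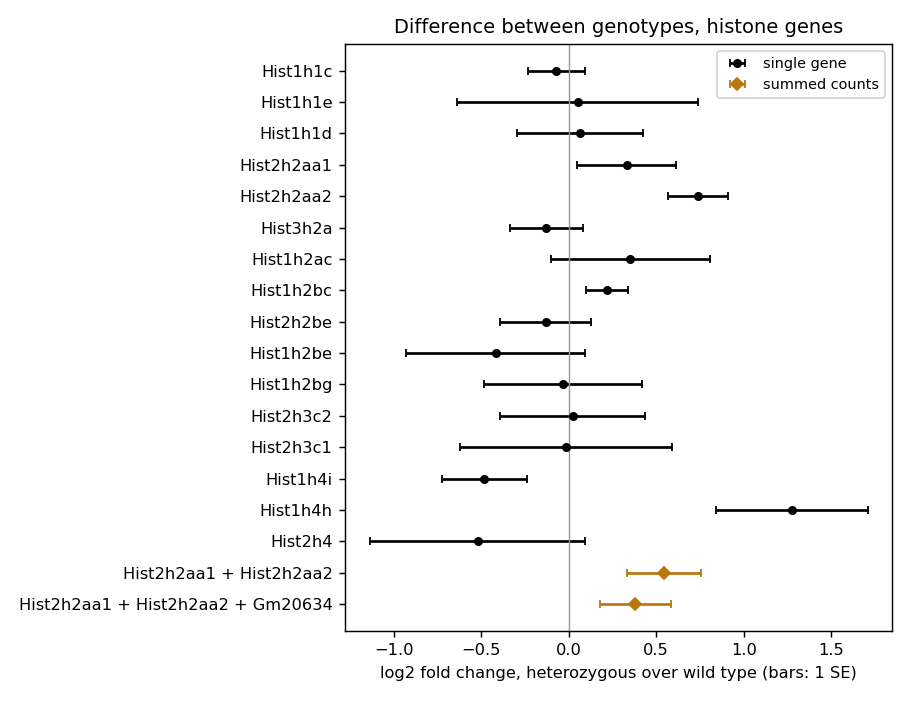
Log2 fold change of Het over WT with its standard error (edgeR) for the 16 tested histone genes, and as diamonds for the Hist2h2aa pair and the pair with Gm20634. Values lie on both sides of 0, from -0.52 for Hist2h4 to 1.28 for Hist1h4h, and the error bars widen for the genes with few counts.

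A single WT library bore on many of these values. W76 was the highest of the 8 libraries for 9 of the 16 tested members and the lowest for 0 of them, while H75 was highest for 4 and H11, H12 and H15 for 1 each. W32 and W90 were lowest for 4 members each. Without W76, the median log2 fold change over the members was 0.30. Hist2h2aa2 was not among the 9, and its log2 fold change lay between 0.59 and 0.87 when each library was left out.

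No difference was detected in the factors that make and process histone mRNA. Of 20 genes on that list, 19 were tested, with 0 past an unadjusted p of 0.05 in either direction and a median log2 fold change of 0.03. Their summed level was 326 to 361 CPM in Het livers and 325 to 347 CPM in WT livers. Slbp averaged 11.5 ± 0.656 CPM in Het livers and 11.6 ± 0.934 CPM in WT livers (SD, n = 4 each). Npat, the coactivator of histone gene transcription, averaged 4.78 ± 0.586 CPM in Het livers and 5.28 ± 0.620 CPM in WT livers. Lsm11, a subunit of the U7 particle that guides 3′ end cutting, averaged 3.42 ± 1.1 CPM in Het livers and 4.66 ± 0.345 CPM in WT livers, with a log2 fold change of -0.45 and an unadjusted p of 0.0723 by edgeR. None of the 3 passed the test.

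Replacement histones, many of which are made outside S phase from RNA with a poly(A) tail, formed a list of 11 genes. They summed to 485 to 586 CPM in Het livers and 461 to 549 CPM in WT livers. Of 10 tested, 0 passed the adjusted threshold. At an unadjusted p under 0.05, 1 gene was higher and 0 were lower, beside 4.90% of all genes higher and 4.44% lower. That gene was H3f3b, which encodes the replacement histone H3.3, with 141 ± 26 CPM in Het livers and 115 ± 4.99 CPM in WT livers (SD, n = 4 each), which is 0.30 as log2 fold change with an adjusted p of 0.503 by edgeR. Of 19 histone chaperones, which carry histones to DNA, all were tested. At an unadjusted p under 0.05, Daxx was higher (log2 fold change 0.31) and Atrx (-0.31) and Hjurp (-0.32) were lower, beside 4.90% of all genes higher and 4.44% lower, and 0 passed the adjusted threshold. Daxx and Atrx together place H3.3, and Hjurp places the centromeric H3 variant. Hjurp averaged 82.5 ± 8.83 CPM in Het livers and 103 ± 11 CPM in WT livers (SD, n = 4 each). The mitosis list described below summed to at most 39.4 CPM in any library. Whether the reads counted for Hjurp include those of other transcripts was not tested.

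Genes of DNA copying and division, with which replication-dependent histones are known to rise, did not pass either. Of 41 DNA replication genes 36 were tested, and 0 were called at an adjusted p under 0.05. Their median log2 fold change was -0.10, with 10 above and 26 below 0, beside a median of 0.0051 and 51.1% above 0 over all genes. At an unadjusted p under 0.05 there were 0 higher and 3 lower, beside 4.90% of all genes higher and 4.44% lower. They included Rfc3, a clamp loader subunit, and Gins3, part of the replicative helicase. Rfc3 averaged 2.59 ± 0.191 CPM in Het livers and 3.37 ± 0.275 CPM in WT livers (SD, n = 4 each). Every Het library was below every WT library for Rfc3, and its log2 fold change was -0.38. The summed level of the list was 208 to 243 CPM in Het livers and 227 to 255 CPM in WT livers.

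Of 30 mitosis genes 18 were tested, and 0 were called at an adjusted p under 0.05. At an unadjusted p under 0.05, 0 were higher and 0 lower, beside 4.90% of all genes higher and 4.44% lower. The median log2 fold change of the 18 was -0.28, with 3 above and 15 below 0. Over all genes the median was 0.0051 and 51.1% were above 0. The summed level was 13.4 to 28.2 CPM in Het livers and 14.2 to 39.4 CPM in WT livers, with the highest value in W32. Mki67, a nuclear protein of cycling cells, had 2.29, 0.848, 1.23 and 0.800 CPM in Het livers H11, H12, H15 and H75, and 3.13, 1.29, 2.31 and 1.17 CPM in WT livers W32, W33, W76 and W90. Top2a, the topoisomerase that untangles copied DNA, had 1.73, 0.501, 1.06 and 1.1 CPM in Het livers and 2.72, 0.75, 1.85 and 1.1 CPM in WT livers. H11 and W32 were highest in their groups for both genes, and W32 had the lowest histone sum of all libraries. The histone sum and the levels of these genes therefore did not order the libraries alike, and their relation was not tested.

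**Figure D5:**
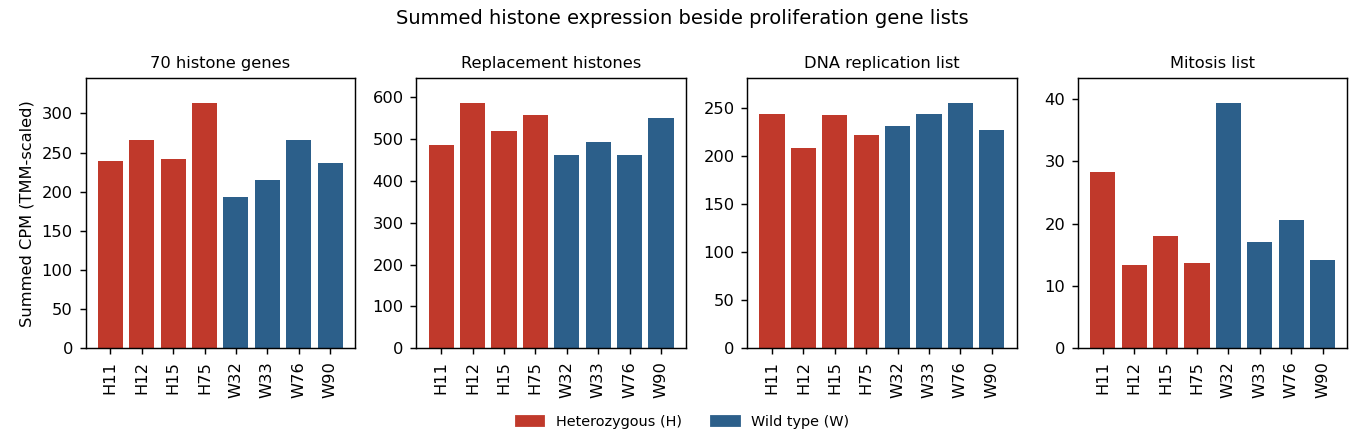
Summed CPM of the 70 histone genes, the replacement histones and the DNA replication and mitosis lists, with 1 bar per library and Het livers left of WT livers. The groups overlap in every panel, and the highest mitosis sum (39.4 CPM) is in W32, which has the lowest histone sum (193 CPM).

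Other RNAs without poly(A) tails were mostly below the filter. Of 25 symbols 3 passed the filter, Rn7sk, Rn7s1 and Rn7s2, with 0 called at an adjusted p under 0.05. Rn7s1 and Rn7s2 carry identical values in every library and stand for 1 measurement, with a log2 fold change of -0.80. That of Rn7sk was also below 0. Rn7sk, the RNA of the 7SK particle that holds back transcription elongation, had 0.201, 0.116, 0.765 and 0 CPM in Het livers and 2.11, 0.715, 0.462 and 1.32 CPM in WT livers. The groups overlapped because H15 lay above W33 and W76, with a log2 fold change of -2.06 and an adjusted p of 0.479 by edgeR. Levels of RNA from other liver cells also varied beside the histone values. Summed erythroid markers lay between 305 and 461 CPM in Het livers and between 272 and 414 CPM in WT livers. Kupffer cell markers lay between 75.6 and 182 CPM in Het livers and between 74.9 and 185 CPM in WT livers, and all 6 were tested with 0 past an unadjusted p of 0.05. Neutrophil markers lay between 0.425 and 3.66 CPM in Het livers and between 0.340 and 0.954 CPM in WT livers. Both tested markers, S100a8 and S100a9, were higher in Het livers at an unadjusted p under 0.05, as were 4.90% of all genes. Their adjusted p was 0.479 and 0.442 by edgeR. They rest on 77 and 169 counts over all libraries, with only 3 and 2 in the Het library H15. B and plasma cell markers lay between 1.23 and 3.56 CPM in Het livers and between 1.79 and 3.31 CPM in WT livers, and T cell markers between 1.83 and 5.62 CPM in Het livers and between 2.54 and 3.79 CPM in WT livers. Cholangiocyte markers lay between 40.9 and 101 CPM in Het livers and between 34.1 and 87.1 CPM in WT livers. All 5 had a log2 fold change above 0, where 51.1% of all genes did. So did all 6 tested erythroid and 6 Kupffer cell markers, and the 2 T cell, 2 neutrophil and 1 B and plasma cell markers tested. Of hepatocyte markers 5 of 6 did, of sinusoidal endothelial markers 4 of 5 and of stellate cell markers 1 of 4.

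Of the cholangiocyte markers, Sox9, a transcription factor of bile duct cells, had 8.84, 44.8, 8.24 and 20.2 CPM in Het livers H11, H12, H15 and H75, and 7.90, 9.43, 8.13 and 9.57 CPM in WT livers W32, W33, W76 and W90. It was highest in H12 and H75, the libraries in which Hist2h2aa2 was also highest. Its log2 fold change was 1.23, with an unadjusted p of 0.0280 and an adjusted p of 0.482 by edgeR. Krt19, Krt7, Epcam and Spp1, the rest of that list, were instead highest in H15 and lowest of the Het libraries in H75. In H15, Hist2h2aa2 had its lowest Het value. Sinusoidal endothelial markers lay between 112 and 168 CPM in Het livers and between 97.2 and 134 CPM in WT livers. Of these, Pecam1, an adhesion protein of endothelial cells, was higher in Het livers at an unadjusted p of 0.0474 (log2 fold change 0.24, adjusted p 0.527 by edgeR). Stellate cell markers lay between 79.1 and 220 CPM in Het livers and between 145 and 185 CPM in WT livers, with 0 of 4 past an unadjusted p of 0.05. Among hepatocyte markers, Hnf4a, a transcription factor of hepatocytes, averaged 633 ± 76.9 CPM in Het livers and 516 ± 19.6 CPM in WT livers (SD, n = 4 each), and the groups did not overlap. Its log2 fold change was 0.30, with an unadjusted p of 0.0187 and an adjusted p of 0.458 by edgeR. The part of these cells in the histone values was not tested.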

How the data were processed

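Gene-level estimated counts, not normalized, were deposited by the authors for 8 livers, 4 Het and 4 WT, and 90.0% of the values are whole. Column names give the group by H or W and no replicate number. Per the submitters' processing notes the build was mm10, with fastp 0.19.5, Bowtie2 2.2.9, GATK 3.8 and SAMtools 1.9. Not given in the sources used here are the counting program, its annotation and its strand setting, so antisense overlaps cannot be separated. Per the file headers, the authors' table of comparisons deposited beside it holds a fold (ratio), log2 fold change, p-value, adjusted p-value and gene length per gene. For 99.5% of 13971 shared genes its sign is that of Het over WT.

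Counts were rounded, filtered with filterByExpr (14261 genes left), TMM-scaled and tested for genotype, with no other term, by the edgeR 4.0.16 quasi-likelihood test (R 4.3.3), with Benjamini-Hochberg adjustment over all genes tested. DESeq2 1.42.0, limma-voom (limma 3.58.1), other filters and scalings, and leaving out each library were alternatives. CPM use TMM-scaled library sizes of the unrounded counts. The fits were tested on simulated data. No 2 replicates agreed within sampling noise (chi-square per gene 22.1 to 180). Shared 50-base stretches and stem-loops were read from GENCODE release 21 transcripts, and promoters from RefSeq. Members, gene lists and named genes were chosen with earlier results of these data known. Members to name were, among those tested, the 4 most abundant of each class, any called and the 5 of lowest p in each direction, which took in all 16. From each list up to 4 genes of lowest p could be named, beside Slbp, Npat, Mki67 and Top2a, and those with an unadjusted p under 0.05 are, except 1 gene of the DNA replication list that is not reported here.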

Additional observations from a re-analysis of the deposited data

Results flagged for a closer look

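In 6 of 154 groups of 4 libraries examined, 1 library stood far from the other 3, where chance alone gives about 1 in 20 groups. The first 3 are histone members in the WT library W76, which is the highest library for most members. Hist1h1e had 1.70 CPM in W76, and the nearest other WT library had 0.383 CPM. Hist1h1d had 0.732 CPM in W76, against 0.454 CPM in the nearest. These are 19 counts in W76 and 12 in each other WT library, a gap that is large only because the other values coincide. Hist2h2aa1 had 28.4 CPM in W76, against 17.4 CPM in the nearest. H3f3b had 122 CPM in the WT library W90, against 113 CPM in the nearest, a gap that is large only because the other 3 libraries lie close together. Rn7s1 and Rn7s2, which carry identical values, had 6.03 CPM each in the Het library H15, against 2.33 CPM in the nearest.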

How the results depend on the processing

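No paired analysis was possible because the columns carry no replicate number. The number of members called was 0, and became 1 (Hist2h2aa2) under DESeq2 and without H15, so its range over libraries left out was 0 to 1. Members higher at an unadjusted p under 0.05 numbered 2, became 4 with no filter on low counts, and were 2 to 3 with a library left out. The 2 members, Hist2h2aa2 and Hist1h4h, carry fractions. Keeping only members with whole counts therefore left 0 by the choice of members, which is no separate result. Members lower numbered 0, and 0 to 1 with a library left out (1 without H15, W32 or W90). Genes called over the whole table numbered 0, and became 18 with no filter, 152 under DESeq2, 252 without H15, 2 without W32, and 1 under the newer quasi-likelihood method, without mitochondrial, rRNA and unannotated loci, and at an adjusted p under 0.1. The range over libraries left out was 0 to 252. The median log2 fold change of the members ran from -0.13 to 0.30 with a library left out, the highest without W76. The log2 ratio of the histone sums was 0.22 and ran from 0.13 to 0.30 with a library left out. Over members with whole counts, whose counts are nearly all from Hist1h1c, it was -0.073.

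Some members changed sign under some settings, and the causes were not tested. With library totals alone as scaling, Hist1h1d gave -0.019, Hist1h1e -0.0018 and Hist2h3c2 -0.041. With limma-voom, Hist2h4 gave 0.021 and Hist2h3c1 0.075. With a library left out, the ranges crossed 0 for Hist1h1c (-0.22 to 0.041), Hist1h1d (-0.17 to 0.29), Hist1h1e (-0.27 to 1.23), Hist1h2be (-0.67 to 0.32), Hist1h2bg (-0.29 to 0.21), Hist2h2be (-0.30 to 0.030), Hist2h3c1 (-0.32 to 0.69) and Hist2h3c2 (-0.19 to 0.61). Hist2h2aa2, Hist2h2aa1, Hist1h4h, Hist1h2bc and Hist1h2ac stayed above 0 and Hist1h4i and Hist3h2a below 0 under all settings run. The depth limits 54 members, which were too low to test.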
